A study of Mus musculus with 4 samples.

Results

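The carbonic anhydrases are a family of enzymes that interconvert carbon dioxide and bicarbonate. Probes were taken as members when the gene name in the non-normalized table of the arrays was CAR2, CAR3, CAR4, CAR5B, CAR6, CAR8, CAR9, CAR12, CAR13 or CAR14, in any case, and the genes are written below with the mouse symbols (Car2 and so on). This rule found 19 probes for all 10 genes among the 45281 probes of an array, which carry 31492 distinct gene names. It used names and no measured value.

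The tissue was subcutaneous white adipose tissue, a fat depot under the skin, from C57BL/6 mice aged 8 to 12 weeks. Wild-type animals (WT) were compared with FtMT-Adip animals, which carry a fat-specific transgene for mitochondrial ferritin, an iron-storing protein of the mitochondrial matrix. For 3 weeks both groups ate a high-fat diet that came with doxycycline, so every array carries the effect of that diet and drug. The promoter that drives the transgene, and whether the wild-type animals carry any part of the inducible system, are not given in the sources used here. Each group has 2 arrays, and single animals and pooled RNA are not distinguished in the labels, so the p-values measure only the spread between these arrays.

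Carbonic anhydrases differ in where they act. Car2, Car3 and Car13 are cytosolic, Car5b is mitochondrial, Car6 is secreted, Car4 is anchored to the outer face of the cell membrane, and Car9, Car12 and Car14 span the membrane with an extracellular catalytic domain. Car8 has lost the catalytic activity and is known as a carbonic anhydrase-related protein. In fat, Car3 is known as an abundant protein of adipocytes, and bicarbonate from the mitochondrial isoforms feeds the carboxylases that serve fatty acid synthesis and the citric acid cycle. Car9 is a textbook target of the hypoxia-inducible factors, and Car12 is often described with it in tumours.

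The stretches just before the transcription start are shown for Car9 and Car12, the family members known for hypoxia control. They were also chosen with their values seen, which lay on opposite sides of WT. Car9 was not called, and the call of Car12 was lost under most alternatives. A part of these letters in those values was not tested. They are 250 bases long, read 5′ to 3′ on the strand of the gene, from RefSeq on GRCm38.p6. Capitals mark CACGT, the reverse complement of ACGTG, which is one form of the core of the hypoxia response element.
Car9, chr4:43506776-43507025, plus strand: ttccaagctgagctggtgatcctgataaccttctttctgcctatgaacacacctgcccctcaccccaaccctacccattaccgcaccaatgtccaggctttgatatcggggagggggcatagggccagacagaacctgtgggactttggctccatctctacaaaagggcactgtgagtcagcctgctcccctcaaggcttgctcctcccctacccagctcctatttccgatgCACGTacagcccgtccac
Car12, chr9:66713436-66713685, plus strand: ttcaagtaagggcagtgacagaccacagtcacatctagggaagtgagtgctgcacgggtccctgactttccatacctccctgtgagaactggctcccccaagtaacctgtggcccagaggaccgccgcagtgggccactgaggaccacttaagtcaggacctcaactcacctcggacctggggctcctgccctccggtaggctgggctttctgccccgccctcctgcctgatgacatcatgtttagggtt
ACGTG was searched on both strands. The Car9 stretch holds 1 match, which begins 18 bases before the start, and the Car12 stretch holds 0. Of the 6 members with an entry in the table (Car4, Car5b, Car6, Car9, Car12 and Car14), 3 held a match (Car6, Car9 and Car14), and 16.6% of all 32851 entries did. The form GCGTG was not searched, so these counts cover ACGTG alone. A match describes letters in this window and is not evidence of binding.

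Of the 19 probes, 8 were tested, which belonged to 6 genes. A probe was tested when its signal ranked above 95% of the probes for olfactory and vomeronasal receptors, genes taken as silent in fat, on at least 2 of the 4 arrays. That level was 119.6 to 123.5 on the 4 arrays. The other 11 probes had signals of 97.7 to 142 and passed on at most 1 array. FtMT-Adip was compared with WT on normalized log2 signal with limma, and a probe was called at a Benjamini-Hochberg adjusted p under 0.05 over all 20797 tested probes of the array. By this test 2 of the 8 member probes were lower in FtMT-Adip, those of Car3 and Car12, against 4.16% of all tested probes. None (0) was higher, against 3.28% of all tested probes. At an unadjusted limma p under 0.05 there were 5 lower and 2 higher member probes, against 11.1% lower and 10.3% higher of all tested probes. For 7 of the 8 member probes, 5 lower and 2 higher, WT and FtMT-Adip signals did not overlap, as for 51.5% of all tested probes (25.9% lower and 25.6% higher). The median log2 change was -0.48 over the 8 member probes and 0.00 over all tested probes.

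**Figure D1:**
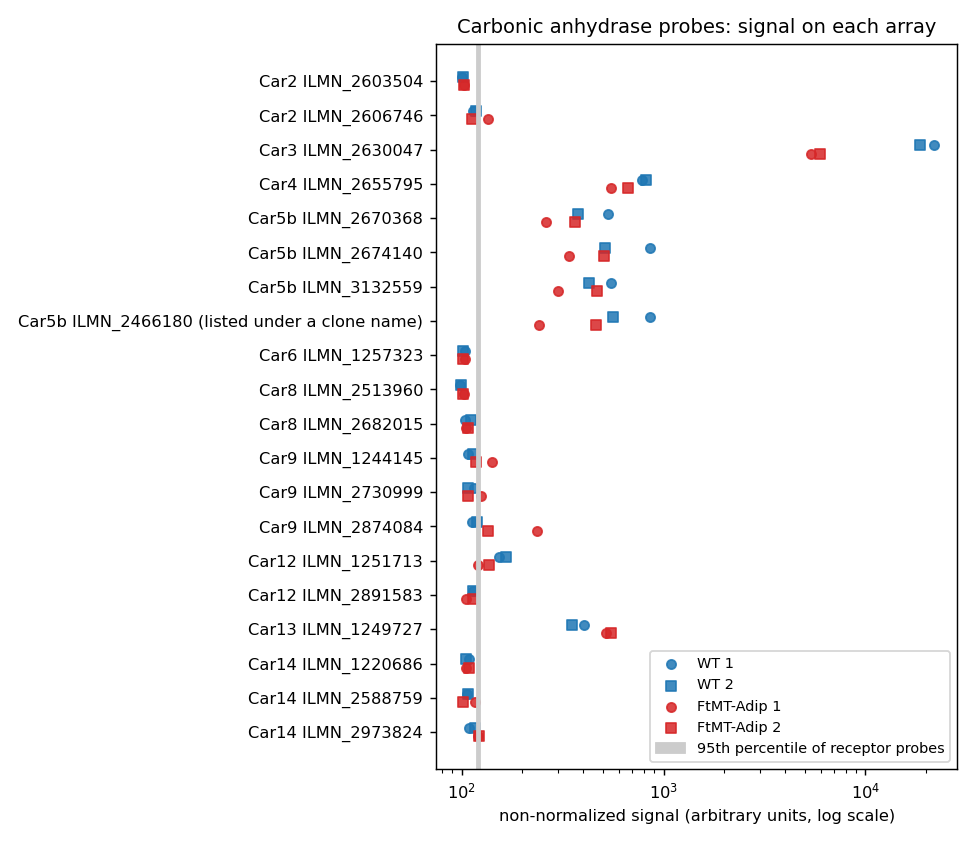
Non-normalized signal (log axis) of the 19 member probes and of 1 further Car5b probe listed under a clone name, with a point for each of the 4 arrays (blue WT, red FtMT-Adip, circles replicate 1, squares replicate 2) and a grey band at the 95th percentile of receptor probes, 119.6 to 123.5. Car3 runs from 5398.5 to 21776.7 with both FtMT-Adip arrays below both WT arrays, while every probe of Car2, Car6, Car8 and Car14 lies near the band.

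Among the cytosolic enzymes, Car3 fell in FtMT-Adip. Car3 has low activity towards carbon dioxide and is known in adipocytes, skeletal muscle and liver, where it is also discussed as a protein that takes up oxidative damage. Its probe (ILMN_2630047) gave non-normalized signals of 21776.7 in WT 1 and 18544.1 in WT 2, against 5398.5 for FtMT-Adip 1 and 5959.4 for FtMT-Adip 2. The FtMT-Adip arrays were both low and close to each other, and the groups did not overlap. On the normalized log2 scale WT stood at 14.24 ± 0.13 (SD, n = 2) and FtMT-Adip at 12.50 ± 0.02 (SD, n = 2), a 3.35-fold lower level (log2 change -1.74, SE 0.130, limma adjusted p = 0.000452). The call held when any 1 array was left out, with log2 changes from -1.84 to -1.65. In the values that the authors normalized, the difference was smaller, 1.96-fold (log2 change -0.97 with a pseudocount of 16, limma adjusted p = 0.0437), and the authors' deposited table gives a ratio of 0.511 with p = 0.0453.

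Other adipocyte transcripts were lower in the same arrays as Car3. Of 10 adipocyte markers, 7 were lower and 0 higher by limma (0 higher also at an unadjusted p under 0.05), and their median log2 change was -0.80. Their summed non-normalized signal was 85009.3 to 103338.5 in WT and 30507.8 to 45565.1 in FtMT-Adip. The markers of highest signal were Pnpla2, a triglyceride lipase (log2 change -0.22, limma adjusted p = 0.580), Lep, which encodes leptin (-1.51, adjusted p = 0.0263), and the adiponectin gene Adipoq (-1.35, adjusted p = 0.00195). Beside this and every other marker list, 4.29% of all genes tested with 1 probe each were lower and 3.57% higher. In whole tissue, fewer cells of a type and less RNA per cell cannot be told apart. Markers of skeletal muscle, another source of Car3, went the other way, with a summed signal of 1742.1 and 2074.1 in WT, 11368.7 for FtMT-Adip 1 and 2985.9 for FtMT-Adip 2. Of the 9 muscle markers tested, 2 were higher (Acta1 and Atp2a1) and 0 lower by limma. At an unadjusted p under 0.05 there were 8 higher and 0 lower, and the median log2 change was 1.76. The myosin gene Myh4 was not above background on 3 of the 4 arrays. The part of either cell type in the Car3 difference was not tested.

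The genes whose profile over the 4 arrays was nearest to that of Car3 were Serpina3n, a secreted protease inhibitor, Hcar1, the lactate receptor of adipocytes, and Ppp1r1a, an inhibitor of protein phosphatase 1. The root mean square distance from Car3, after each profile was centred on its own mean, was 0.053, 0.055 and 0.068 log2 units. Their log2 changes were -1.68, -1.81 and -1.85. With 4 arrays in 2 groups, nearness mostly says that these genes fell by a like amount.

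Car13, another cytosolic enzyme, had higher signals in FtMT-Adip without passing the test. Its probe (ILMN_1249727) read 401.9 in WT 1 and 351 in WT 2, against 519.8 for FtMT-Adip 1 and 550.1 for FtMT-Adip 2. Both FtMT-Adip arrays were above both WT arrays. The difference was 1.45-fold (log2 change 0.54, SE 0.151, limma adjusted p = 0.0696). It passed only when the variance was modelled without a trend (adjusted p = 0.0431), among 13 alternatives. The authors' own deposited comparison gives a ratio of 1.49 with an unadjusted p = 0.228.

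Car2, the fast cytosolic enzyme of red blood cells and kidney, was at background. Its 2 probes gave 100.8 to 134.9, and only FtMT-Adip 1 was above background, for 1 probe (ILMN_2606746). Red blood cell transcripts were well measured in the same arrays. Of 5 tested red blood cell markers 3 were lower in FtMT-Adip and 0 higher (0 also at an unadjusted p under 0.05), among them the haemoglobin genes Hba-a1 (log2 change -1.06, adjusted p = 0.00658) and Hbb-b1 (-0.74, adjusted p = 0.00954 by its brightest probe). Epb42 was not above background on any array.

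In the mouse annotation used for names (RefSeq, GRCm38.p6), Car13, Car1, Car3 and Car2 follow one another on chromosome 3 with no other protein-coding gene between them. Car3 was 3.35-fold lower and Car13 had the values given above. Car1, the red blood cell isoform and not one of the 10 members, read 135 and 128.1 on the WT arrays against 111.6 and 122.9 in FtMT-Adip (limma adjusted p = 0.132). Its probe was not above background on either FtMT-Adip array and entered the test only through the WT arrays, so no fold is given. Car2 could not be tested.

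**Figure D2:**
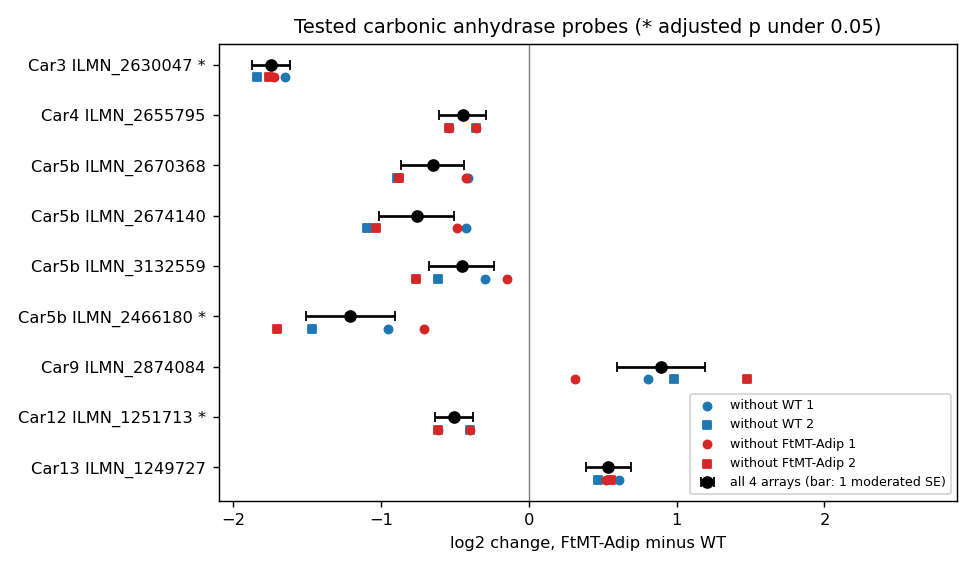
Log2 change (FtMT-Adip minus WT) of the 8 tested member probes and the further Car5b probe ILMN_2466180, where black points with bars are the estimate ± 1 moderated SE from all 4 arrays, coloured points below them leave out 1 array each, and asterisks mark an adjusted p under 0.05. Car3 stays between -1.84 and -1.65 whichever array is left out, while Car9 runs from 0.31 to 1.47.

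Car5b, the mitochondrial isoform found in many tissues, had lower signals in FtMT-Adip on every probe, and no member probe passed. Probe ILMN_2674140 read 855.2 in WT 1 and 515.7 in WT 2, against 339.4 for FtMT-Adip 1 and 509.9 for FtMT-Adip 2. Probe ILMN_2670368 read 532.8 in WT 1 and 376.4 in WT 2, against 261 for FtMT-Adip 1 and 364.7 for FtMT-Adip 2. Probe ILMN_3132559 read 551.1 in WT 1 and 428.9 in WT 2, against 300.6 for FtMT-Adip 1 and 468.5 for FtMT-Adip 2. On each probe WT 1 was the highest array and FtMT-Adip 1 the lowest, with WT 2 and FtMT-Adip 2 near each other, and on the last probe the groups overlapped. The log2 changes were -0.76 (SE 0.253, limma adjusted p = 0.117), -0.65 (SE 0.214, adjusted p = 0.112) and -0.45 (SE 0.221, adjusted p = 0.282). Leaving out FtMT-Adip 1 or WT 1 brought the first to -0.49 or -0.43, and leaving out FtMT-Adip 2 or WT 2 to -1.03 or -1.09, with adjusted p of 0.0383 and 0.0390 in the latter cases. The second passed without FtMT-Adip 2 (-0.88, adjusted p = 0.0473) and was nearest 0 without WT 1 (-0.41), and the third ran from -0.76 without FtMT-Adip 2 to -0.15 without FtMT-Adip 1 and did not pass. In the values that the authors normalized, ILMN_2674140 (log2 change -0.75, limma adjusted p = 0.0443) and ILMN_3132559 (-0.67, adjusted p = 0.0373) passed with a pseudocount of 16. The authors' own deposited comparison gives ratios of 0.470 (unadjusted p = 0.117) for ILMN_2674140, 0.632 (p = 0.278) for ILMN_2670368 and 0.444 (p = 0.102) for ILMN_3132559.

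A further probe lies outside the naming rule, because the table lists it as 7330410H16RIK, a name that RefSeq gives as a synonym of Car5b. This probe (ILMN_2466180) read 853.3 in WT 1 and 561.8 in WT 2, against 241.6 for FtMT-Adip 1 and 463 for FtMT-Adip 2. WT 1 was again the highest array and FtMT-Adip 1 the lowest, and the groups did not overlap. It was 2.31-fold lower (log2 change -1.21, SE 0.303, limma adjusted p = 0.0468). The call ended without WT 1 (-0.95, adjusted p = 0.183), without FtMT-Adip 1 (-0.71, adjusted p = 0.186), without a variance trend, with the replicate number as a block (adjusted p = 0.0738) and in the authors' normalized values. Without FtMT-Adip 2 the log2 change was -1.70.

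Mitochondrial carboxylases, which consume the bicarbonate that Car5b can supply, were measured on the same arrays. Of 8 tested bicarbonate-using enzymes, 2 were lower and 0 higher by limma (4 lower and 1 higher at an unadjusted p under 0.05), against 4.29% lower and 3.57% higher among all genes tested with 1 probe each. Mccc2, a subunit of the leucine-degrading methylcrotonyl-CoA carboxylase, read 329.4 and 236.9 on the WT arrays against 153.4 and 169.7 in FtMT-Adip. The FtMT-Adip arrays were both below WT, and the log2 change was -1.04 (SE 0.183, adjusted p = 0.0110). Among 13 alternatives this call ended only in the authors' normalized values with a pseudocount of 16 (adjusted p = 0.0598). Pcca, the biotin-bearing subunit of propionyl-CoA carboxylase, read 1158 and 802.4 on the WT arrays against 500.4 and 614.7 in FtMT-Adip by its brighter probe (log2 change -0.87, SE 0.187, adjusted p = 0.0246). Its other probe was not called (-0.72, adjusted p = 0.0924), and the call of the brighter probe ended without WT 1, without FtMT-Adip 1 and in the authors' normalized values. The partner subunits Pccb and Mccc1 stood at -0.66 (adjusted p = 0.0727) and -0.59 (adjusted p = 0.0731), and pyruvate carboxylase (Pcx) at -0.43 (adjusted p = 0.358). The acetyl-CoA carboxylase genes of the list had positive log2 changes that did not pass, 0.45 for Acaca (adjusted p = 0.525) and 0.56 for Acacb (adjusted p = 0.200). The median of the list was -0.51.

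**Figure D3:**
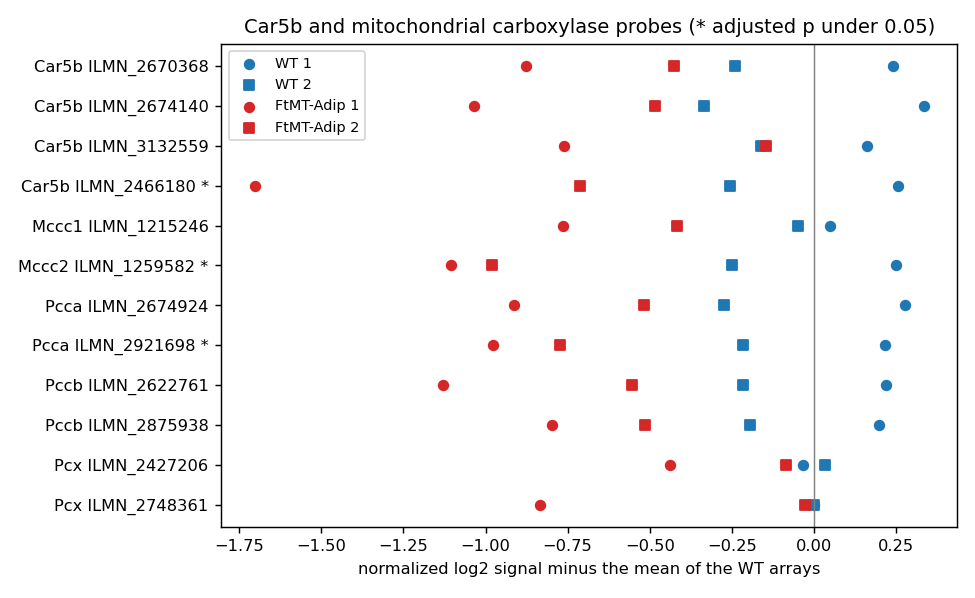
Normalized log2 signal of 4 Car5b probes and of the tested probes of mitochondrial carboxylase genes, as the difference of each array from the mean of the WT arrays (blue WT, red FtMT-Adip, circles replicate 1, squares replicate 2; asterisks mark an adjusted p under 0.05). FtMT-Adip 1 is the lowest array for every Car5b, Mccc, Pcca and Pccb probe, and WT 1 is the highest.

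Car4, the enzyme anchored to the outer membrane face and known from capillary endothelium, had lower signals in FtMT-Adip and did not pass. Its probe (ILMN_2655795) read 779.8 in WT 1 and 817.4 in WT 2, against 549.2 for FtMT-Adip 1 and 667.3 for FtMT-Adip 2. Both FtMT-Adip arrays were below both WT arrays. The difference was 1.36-fold (log2 change -0.45, SE 0.160, limma adjusted p = 0.144), and it did not pass under any of 13 alternatives. The authors' deposited table gives a ratio of 0.662 with an unadjusted p = 0.0296. Endothelial markers were lower in the same arrays, with 3 of 9 tested genes lower and 0 higher (0 also at an unadjusted p under 0.05) and a median log2 change of -0.63. Their summed signal was 11841.6 to 13833 in WT and 6598.5 to 8658.5 in FtMT-Adip. The part of endothelial content in the Car4 values was not tested.

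Car12, a membrane-spanning enzyme with its catalytic domain outside the cell, was called lower. Probe ILMN_1251713 read 153.8 in WT 1 and 166.8 in WT 2, against 120.8 for FtMT-Adip 1 and 136.3 for FtMT-Adip 2. The groups did not overlap, and FtMT-Adip 1 was not above background. On the normalized log2 scale WT stood at 6.84 ± 0.15 (SD, n = 2) and FtMT-Adip at 6.34 ± 0.15 (SD, n = 2), a 1.42-fold difference (log2 change -0.50, SE 0.128, limma adjusted p = 0.0487). The call stands at the threshold and ended under 7 of 12 alternatives, among them without WT 1 (adjusted p = 0.0524), without WT 2 (0.165) and without FtMT-Adip 1 (0.311). In the authors' normalized values the log2 change was -0.16 with a pseudocount of 16 (adjusted p = 0.277). The authors' own deposited comparison gives a ratio of 0.615 with an unadjusted p = 0.0963. The other Car12 probe (ILMN_2891583) gave 105.1 to 114.4 and was at background on every array.

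Car9 had its highest signal in a single transgenic array. Probe ILMN_2874084 read 112.7 in WT 1 and 119.8 in WT 2, against 235.9 for FtMT-Adip 1 and 135.9 for FtMT-Adip 2. Both FtMT-Adip arrays were above both WT arrays, and WT 1 was not above background. The difference was 1.86-fold (log2 change 0.89, SE 0.298, limma adjusted p = 0.118). It was 0.31 without FtMT-Adip 1 (adjusted p = 0.281) and 1.47 without FtMT-Adip 2 (adjusted p = 0.000282), so 1 array decides its size. In the authors' normalized values it passed (log2 change 0.39 with a pseudocount of 16, limma adjusted p = 0.0368). The authors' own deposited comparison gives a ratio of 2.87 with an unadjusted p = 0.188. The other 2 Car9 probes read 107.5 to 142 and were above background on FtMT-Adip 1 only.

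Markers of epithelial cells, which include known sources of Car9, also had their highest summed signal on FtMT-Adip 1. The keratin gene Krt8 read 129.1 and 133.2 in WT, 313.5 for FtMT-Adip 1 and 139.9 for FtMT-Adip 2 (log2 change 0.89, limma adjusted p = 0.245). The summed signal of 10 epithelial markers was 1133.4 and 1140.1 in WT, 1584.5 for FtMT-Adip 1 and 1142.5 for FtMT-Adip 2. Of the 2 tested markers, 0 were higher and 0 lower by limma, also at an unadjusted p under 0.05. The tested marker other than Krt8 had a log2 change of 0.26. Of these markers 8 were not tested, and Epcam, Krt14, Krt5 and Wap were at background on every array. The part of such cells in the Car9 values was not tested.

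Genes of the hypoxia response, a list that includes the transcription factor gene Hif1a itself, were not called. Bnip3 of this list could not be tested. Of 23 tested genes 0 were higher and 0 lower by limma, each represented by its brightest probe, and at an unadjusted p under 0.05 there were 0 higher and 2 lower. The median log2 change was -0.08, with a range from -0.37 to 0.26. The smallest p-values belonged to Hif1a, an oxygen-regulated transcription factor gene (log2 change -0.37, adjusted p = 0.173), and Ndrg1 (-0.37, adjusted p = 0.229), of which the other probe was called lower (-0.72, adjusted p = 0.0246).

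Car6, Car8 and Car14 were not measurable in this tissue. The secreted enzyme Car6, known from saliva, read 101.8 to 104.6 on its only probe. Car8 read 97.7 to 111.9 on 2 probes. Car14 read 102.2 to 122.5 on 3 probes, and 0 of these 6 probes was above background on any array. Car8 is known to bind the calcium channel of the endoplasmic reticulum encoded by Itpr1, which was measured (log2 change -0.39, SE 0.153, limma adjusted p = 0.183). Of the 6 family genes outside the member list, Car5a, Car10 and Car15 could not be tested, and Car7 (limma adjusted p = 0.627), Car11 (log2 change 0.04, adjusted p = 0.920) and Car1 (above) were not called, with 1 of the 3 (Car1) below an unadjusted p of 0.05. Car7, like Car1, was above background on the WT arrays only, with 123.1 and 120.7 there and 113.8 and 122.6 in FtMT-Adip.

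Transporters of bicarbonate, protons and lactate, which work beside the carbonic anhydrases in acid-base balance, mostly did not pass. Of 19 tested genes 2 were lower and 0 higher by limma, against 4.29% lower and 3.57% higher among all genes tested with 1 probe each. At an unadjusted p under 0.05 there were 4 lower and 4 higher, and the median log2 change was 0.09. Slc16a7, a monocarboxylate transporter gene listed as D630004K10RIK, read 514.8 and 415.4 on the WT arrays against 298.6 and 305.5 in FtMT-Adip. The groups did not overlap, and the log2 change was -0.73 (SE 0.159, adjusted p = 0.0272). When WT 1, or either FtMT-Adip array, was left out, the call ended, as it did in the authors' normalized values. The other Slc16a7 probe (ILMN_2645399), listed under the gene symbol, gave 98.6 to 111.8 and was at background on every array. By its brightest probe, the electrogenic sodium-bicarbonate cotransporter gene Slc4a4 showed the array pattern of Car9. That probe read 296.2 and 258 in WT, 696.9 for FtMT-Adip 1 and 338.2 for FtMT-Adip 2. Its log2 change was 0.90 (SE 0.343, adjusted p = 0.170). The other tested Slc4a4 probe (ILMN_1221628) lacked this pattern, and its groups overlapped (log2 change 0.14, adjusted p = 0.545). Its signals ran from 109.9 to 126.5, near background. Slc4a4 was singled out after its values were seen.

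**Figure D4:**
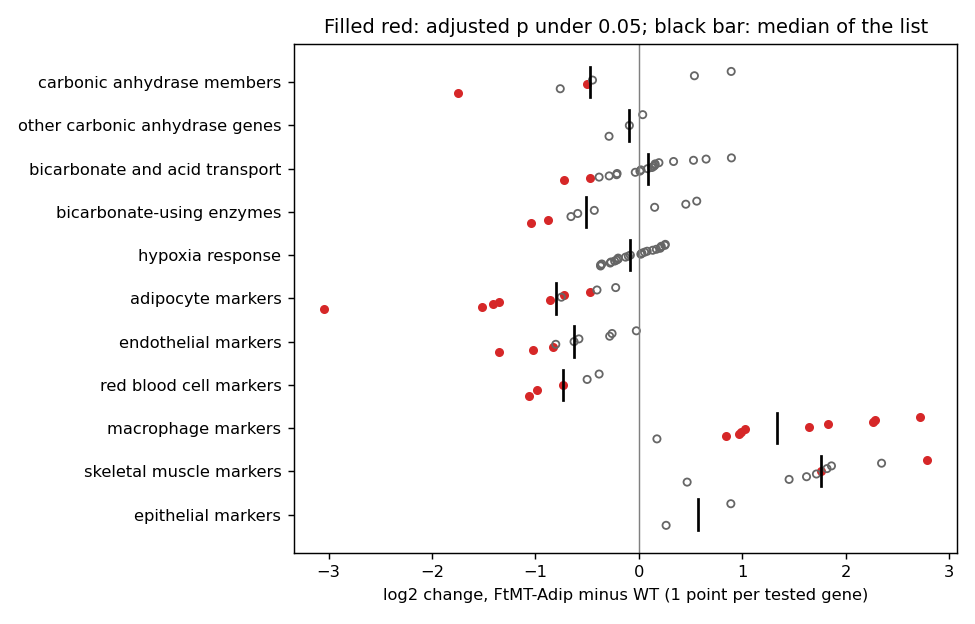
Log2 change (FtMT-Adip minus WT) of each tested gene, 1 probe per gene, by list, with filled red points for an adjusted p under 0.05, open points for the rest and a black bar at the median of each list. The medians were -0.48 for the carbonic anhydrase members, -0.51 for bicarbonate-using enzymes, -0.80 for adipocyte markers, -0.63 for endothelial markers, 1.34 for macrophage markers and 1.76 for skeletal muscle markers.

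Macrophage transcripts were higher in FtMT-Adip, with 9 of 10 markers higher and 0 lower by limma (0 lower also at an unadjusted p under 0.05). Their summed signal was 8063.9 to 9039.1 in WT and 20469.6 to 24726.1 in FtMT-Adip, led by Lyz2 (log2 change 1.03), Gpnmb (2.72) and Mrc1 (0.99). These changes of other cell markers stand beside every value of the family given here, and their part in them was not tested. Over the whole array, the Pearson correlation across tested probes, which are no replicates of each other, was 0.988 within WT, 0.989 within FtMT-Adip and 0.959 to 0.974 across the groups.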

How the data were processed

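Biotin-labelled total RNA was hybridised to Illumina BeadChips, per the labels' protocols. The authors deposited a table of non-normalized intensity values, with a lowest signal of 91.3 to 93.1 per array and no background subtraction, and a table of normalized intensity values whose method is not given in the sources used here. Per the file headers, each probe of the second table has a transgenic-to-WT ratio and a p-value. The series value table was identical to it (largest difference 0), with a linear scale, no centring on 0 and medians of 3.48, 3.54, 3.55 and 3.65. A further 8 columns of log10 values were not used.

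Non-normalized values were corrected with normexp (offset 50), quantile normalized and put on the log2 scale in limma 3.58.1 (R 4.3.3). FtMT-Adip was compared with WT by lmFit and eBayes, with the variance modelled on the mean (prior degrees of freedom 6.86), two-sided, with Benjamini-Hochberg adjustment over 20797 tested probes. SE is the moderated standard error of the log2 change. The tested probes were chosen against 1479 receptor probes as the report describes, since detection p-values were not among the columns used here. The script was tested on simulated data. RefSeq (GRCm38.p6) gave current names, through the symbol for 22864 probes and through an unambiguous synonym for 11912, and the tables name no build. Where several probes of a gene were tested, the brightest on average stands for the gene. All family probes are reported. Of the other lists, called genes and otherwise the genes of smallest p are named, of marker lists the brightest, and for Car3 the 3 genes of nearest profile. Krt8, Acta1, Atp2a1, Pccb, Mccc1, Pcx, Acaca, Acacb, Slc4a4, Itpr1 and genes at background were named after their values were seen. The members and lists were chosen with earlier results of these data known. Slides and scan dates are not given, so batches were not examined. The number of arrays limits the precision. Same-numbered arrays did not deviate together (correlation of deviations -0.08 over tested probes). Of the transport genes called lower, 1 is not reported here.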

Additional observations from a re-analysis of the deposited data

How the results depend on the processing

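Over the 8 member probes, 102 values were recomputed under up to 13 alternatives, of which 84 kept direction and side of the threshold, 7 lost the call, 11 gained one and 0 changed direction. Car3 was called under all 13. The 7 lost calls were those of Car12. The number of member probes called lower, 2 as reported, was 1 with no filter on dim probes, 1 when all 4 arrays had to be above background (where Car9 and Car12 could not be tested) and 1 without a variance trend. It was 3 in the authors' normalized values with either pseudocount, where 2 Car5b probes gained the call and Car12 lost it, and it ran from 1 to 4 when 1 array was left out. The number called higher, 0 as reported, was 1 (Car13) without a variance trend and 1 (Car9) in the authors' normalized values with a pseudocount of 16 or of 1, the latter chosen after seeing the data, and it ran from 0 to 1 over left-out arrays. All tested probes called numbered 1548, against 610 and 699 in the authors' normalized values with a pseudocount of 16 and 1, and 652 to 1627 over left-out arrays. Transport genes called lower numbered 0 in the authors' normalized values with either pseudocount, 1 without a variance trend, and 0 to 1 over left-out arrays. Those called higher numbered 1 with median scaling, and 0 to 1 over left-out arrays. With the replicate number as a block, all calls numbered 1225, the member probes called lower 2 and the transport genes called lower 1. The numbers pair no arrays by the labels, so this block is given here and where it ended a call. With 1 array of a group left out, the lone array is assumed to vary like the other group. The cause of these shifts was not tested. Probes near background limit what can be read for Car9 and Car12.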
